A study of Homo sapiens with 6 samples.

Results

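The genes described here encode intermediate filament proteins and nuclear lamins, measured by RNA sequencing in colon fibroblasts after silencing of *LTBP2*. The 10 members were taken by symbol from the raw count table, which lists 60663 genes in all. They are *VIM*, *DES*, *SYNM*, *NES*, *LMNA*, *LMNB2*, *KRT7*, *KRT8*, *KRT18* and *KRT19*, and each symbol matched 1 row. The choice was by name alone, although earlier results of these data were known. Another 60 genes of the same family, among them *LMNB1*, were kept as a separate list.

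The cells were CCD18Co, an established line of normal human colon fibroblasts, grown in serum-containing medium. In 3 libraries (siLTBP2) the cells had been transfected for 6 h with a pool of siRNAs against *LTBP2*, a gene for a secreted matrix protein that binds to elastic microfibrils. In the other 3 libraries (siNT) they had received a non-targeting pool with the same lipid reagent, Lipofectamine. RNA was collected 48 h after transfection in both groups, and stranded libraries were made from total RNA depleted of ribosomal RNA. Libraries are named by group and replicate number (siNT 1 to siNT 3, siLTBP2 1 to siLTBP2 3). The comparison asks which transcripts differ after *LTBP2* silencing. All 6 libraries come from 1 cell line and 1 siRNA pool per group, and no source used here says that replicates were separate cultures, so p-values measure the spread between these libraries, which may be technical.

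Intermediate filament proteins share a central rod that pairs into coiled coils, and these associate into rope-like filaments without polarity. Type III proteins such as vimentin and desmin can assemble alone, the large type IV proteins synemin and nestin join them as partners, and keratins need 1 acidic type I and 1 basic type II chain. Lamins form a meshwork under the inner nuclear membrane. Vimentin is the usual filament of fibroblasts, whereas keratins 7, 8, 18 and 19 are the chains of simple epithelia.

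A short word is found in the 3′ untranslated regions (UTRs) of *LMNA*, *LMNB2* and *SYNM*, and its sites are shown because the latter 2 genes were the members that fell in siLTBP2, while *LMNA* did not pass the test. The word, GCACCCA, was chosen because genes that carry it had been lower in siLTBP2 in an earlier analysis of these data, so a match adds no independent evidence. It was searched on the transcript strand of canonical GENCODE 44 transcripts. The sites lie at chr1:156139931-156139959 on the plus strand (*LMNA*), chr19:2429875-2429903 on the minus strand (*LMNB2*) and chr15:99133894-99133922 on the plus strand (*SYNM*) of GRCh38. They are written 5′ to 3′ along the transcript, with the word in capitals.
LMNA: agagcctgctgGCACCCAccgtggaggag
LMNB2: cctatcacgacGCACCCAagcccctcagt
SYNM: cttatcccttaGCACCCAaacatttaatt
Each of these 3 UTRs holds 1 copy, and the UTRs of the other 7 members hold none. Among 12314 tested coding genes whose 3′ UTR spans 50 bases or more, 11.8% hold the word, a share not matched for UTR length. *NES* and *KRT8* have 1 copy each upstream of the UTR. Whether the word plays a part in any count was not tested.

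The libraries held 44663424 to 53576899 counted reads, and 16920 genes passed the low-count filter. Levels are given as CPM, the reads of a gene relative to the reads of all tested genes in the library, scaled by TMM factors throughout. The silenced gene itself was at 25.0, 23.1 and 21.2 CPM in siNT and at 6.49, 8.61 and 6.00 CPM in siLTBP2, so *LTBP2* kept 30.4% of its siNT mean. Its log2 fold change was -1.72 (SE 0.15, adjusted p = 6.6e-05, edgeR quasi-likelihood test with Benjamini-Hochberg adjustment over all genes tested, as for every adjusted p given here unless another fit is named). All 8 fibroblast markers were detected, from 88.3 CPM for *LUM* to 2278 CPM for *COL1A1* as siNT means. Of 15 epithelial genes, 14 had a mean under 1 CPM, with 0 to 2 counts of *EPCAM* and of *CDH1* in any library, and their summed level was 2.08 to 4.64 CPM in siNT and 2.07 to 2.66 CPM in siLTBP2. Endothelial, immune, mesothelial and glial or neuronal lists summed to at most 2.28 CPM in any library, and of the endothelial list 1 gene was called lower with the replicate block and none without it. In such bulk samples, fewer cells of a type and less RNA per cell cannot be told apart.

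Of the 10 members, *DES* and *KRT19* fell below the low-count filter and 8 were tested. *KRT18* rose, *SYNM* and *LMNB2* fell, and *VIM*, *NES*, *LMNA*, *KRT7* and *KRT8* did not pass an adjusted p of 0.05. Over all genes tested, 19.3% passed that threshold, 9.76% higher and 9.51% lower in siLTBP2. When a fold change above 2 and an adjusted p below 0.01 were asked for, 2 members were called, *KRT18* higher and *SYNM* lower, against 2.57% of all genes. In 5 members tested (*VIM*, *SYNM*, *LMNB2*, *KRT8* and *KRT18*) the siNT and siLTBP2 libraries did not overlap, as in 37.0% of all genes. The median log2 fold change of the 8 members was -0.03, and that of all genes tested was -0.01. With the replicate number as a block in the fit, 5 members passed, *VIM* and *KRT8* in addition, while the number of genes called rose from 3261 to 6131. With 3 libraries against 3, an exact permutation test of 1 gene cannot go below p = 0.1.

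**Figure D1:**
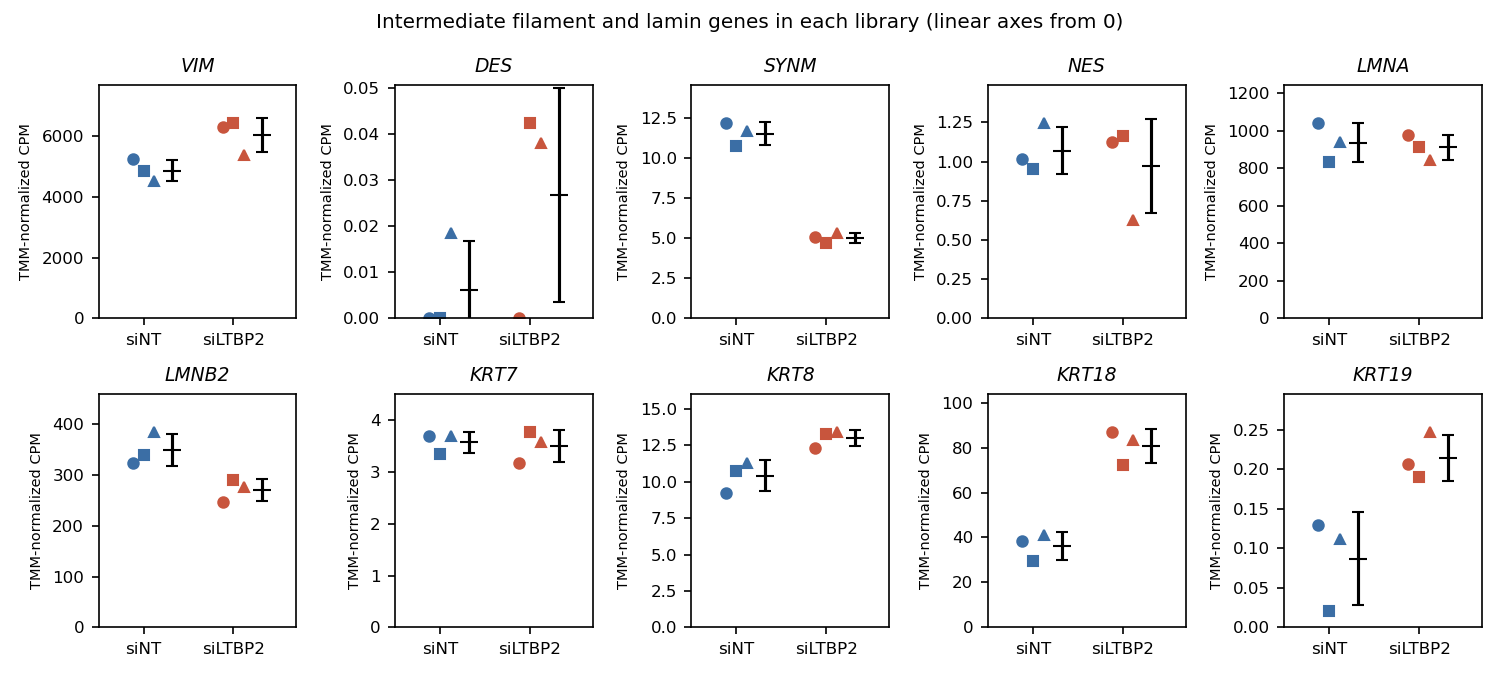
TMM-normalized CPM of the 10 members in each library, on linear axes from 0 that differ between panels. Circles, squares and triangles are replicates 1, 2 and 3 (siNT blue, siLTBP2 red), and the black marks are the mean ± SD of 3 libraries. *SYNM* and *LMNB2* are lower and *KRT18* is higher in every siLTBP2 library than in any siNT library, *LMNA*, *KRT7* and *NES* overlap, and *DES* and *KRT19* rest on a few counts.

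Levels of different genes were compared as CPM per kilobase of the canonical transcript. In siNT the order was *VIM* (2261), *LMNA* (295), *LMNB2* (75.2), *KRT18* (25.7), *KRT8* (5.84), *KRT7* (2.20), *SYNM* (1.57), *NES* (0.192), *KRT19* (0.0627) and *DES* (0.00276), each a mean of 3 libraries in CPM per kilobase. No neighbours in this order overlapped over the siNT libraries, although *DES* stayed at or under a floor of 3 counts in each library, as did *KRT19* in siNT 2. With the length of all annotated exons in place of the canonical transcript, *KRT7* and *SYNM* changed places. In siLTBP2, *KRT18* reached 51.0 to 61.4 CPM per kilobase, overlapping the range of *LMNB2* there (53.0 to 62.3), so these neighbours no longer differed beyond their spread. *NES* (0.112 to 0.209) and *KRT19* (0.137 to 0.177) overlapped in siLTBP2 as well.

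The type III gene *VIM* (chromosome 10, 17228241 to 17237593, plus strand) encodes vimentin. It held rank 8 of the 16920 genes tested by mean CPM in siNT and took 0.455% to 0.637% of all counts of a library. It was at 5241, 4847 and 4524 CPM in siNT and at 6288, 6420 and 5394 CPM in siLTBP2. All 3 siLTBP2 libraries lay above the siNT libraries, with siLTBP2 3 the closest to them. The log2 fold change of *VIM* was 0.31 (SE 0.12), and it did not pass the test (adjusted p = 0.102). The call depended on the test, since *VIM* passed with the replicate block (adjusted p = 0.00368), in edgeR's likelihood ratio test (0.0413) and in DESeq2 (0.0251). An antisense gene, *VIM-AS1*, overlaps exons of *VIM* on the other strand and had a log2 fold change of 0.15 (adjusted p = 0.555). Whether the counting used strand is not given in the sources used here, so how reads of the overlap were assigned or dropped is not known. *VIM-AS1* was near 10.7 CPM in siNT against 4871 CPM for *VIM*.

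Desmin, the other type III protein of the list, is the filament of muscle. *DES* (chromosome 2, 219418377 to 219426735, plus strand) had 0, 0 and 1 counts in siNT and 0, 2 and 2 counts in siLTBP2, at or under the floor of 3 counts in every library, so no fold change is given and no difference was detectable at this depth. Of 12 muscle genes chosen around desmin, 9 were tested, with 3 higher and 2 lower (55.6% called, against 19.3% of all genes tested). Their median log2 fold change was 0.06. The actin-binding gene *TAGLN* rose from 84.3 ± 8.26 to 187.6 ± 51.7 CPM (SD, n = 3; log2 fold change 1.16, SE 0.17, adjusted p = 0.00104), and *SMTN*, for the contractile-filament protein smoothelin, rose from 194 ± 13.1 to 335 ± 13.4 CPM (0.79, SE 0.09, adjusted p = 0.00024). *MYOCD*, for the smooth muscle coactivator myocardin, fell from 58.2 ± 17.3 to 24.6 ± 7.90 CPM (-1.25, SE 0.25, adjusted p = 0.00686). The actin nucleator gene *LMOD1* fell by 0.75 on the log2 scale (adjusted p = 0.0485). Its groups overlapped, and its call was lost without siNT 1 (adjusted p = 0.0803), siNT 2 (0.195), siLTBP2 1 (0.0893) or siLTBP2 3 (0.0927), with upper-quartile factors (0.0623) and where 1 CPM in 3 libraries was required (0.0573). The differentiated smooth muscle genes *MYH11* and *CNN1*, like *DES*, had at most 5 counts in any library, and *ACTA2*, for smooth muscle actin, did not pass (64.2 ± 9.45 and 75.5 ± 14.3 CPM, adjusted p = 0.309). *ACTG2*, for the smooth muscle gamma-actin, rose from 41.2 ± 1.10 to 61.1 ± 9.61 CPM, with no overlap between the groups (log2 fold change 0.57, SE 0.11, adjusted p = 0.00563). The calls of *ACTG2* under other settings are not given. In the fit with the replicate block, 4 genes of the list were higher and 3 lower, where 6131 of all 16920 genes tested passed.

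Synemin is a large type IV protein that does not form filaments alone and ties vimentin or desmin to membrane complexes. *SYNM* (chromosome 15, 99098217 to 99135593, plus strand) was at 12.2, 10.7 and 11.7 CPM in siNT and at 5.07, 4.72 and 5.33 CPM in siLTBP2. Every siLTBP2 library was well below the lowest siNT library, and the libraries of each group lay close together. *SYNM* kept 43.8% of its siNT mean, with a log2 fold change of -1.19 (SE 0.12, 95% interval -1.47 to -0.92, adjusted p = 0.00017). Under 14 other settings the log2 fold change ranged from -1.24 to -1.15 and was called in each. Counted reads of *VIM* per read of *SYNM* were 431, 452 and 388 in siNT and 1240, 1361 and 1012 in siLTBP2. Its antisense genes *SYNM-AS1* and *SYNM-AS2* had 2 and 51 counts over the 6 libraries together, against 530 to 629 counts of *SYNM* in each siNT library.

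The dystrobrevins bind synemin in the dystrophin complex. *DTNA*, for alpha-dystrobrevin, was at 5.90, 5.02 and 6.77 CPM in siNT and at 3.51, 3.95 and 3.95 CPM in siLTBP2. The groups did not overlap, and its log2 fold change was -0.63 (SE 0.16, adjusted p = 0.0182). The call was lost without siNT 1 (adjusted p = 0.0503), siNT 3 (0.0732), siLTBP2 1 (0.0643) or siLTBP2 2 (0.0521). *DTNB*, for beta-dystrobrevin, did not pass (9.30 ± 0.491 and 8.54 ± 0.792 CPM, adjusted p = 0.543).

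Nestin, the other type IV protein, is best known from progenitor cells. *NES* (chromosome 1, 156668763 to 156677407, minus strand) had 47, 47 and 67 counts in siNT and 49, 55 and 33 counts in siLTBP2, or 1.02, 0.952 and 1.24 CPM against 1.12, 1.16 and 0.626 CPM. The groups overlapped, with siLTBP2 3 the lowest of all 6 libraries. The log2 fold change was -0.15 (95% interval -0.76 to 0.46, adjusted p = 0.757), and without siLTBP2 3 it was 0.10. A change of the size seen in *SYNM* lies outside this interval.

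*LMNA* (chromosome 1, 156082573 to 156140081, plus strand) encodes lamins A and C, which the gene count does not separate. It was at 1038, 831 and 940 CPM in siNT and at 974, 913 and 843 CPM in siLTBP2. The siLTBP2 libraries all lay within the siNT range. The log2 fold change was -0.04 (95% interval -0.29 to 0.20, adjusted p = 0.84), and it turned positive without siNT 1 (0.03) or siLTBP2 3 (0.01).

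The B-type lamins stay attached to the membrane through a farnesyl tail. *LMNB2* (chromosome 19, 2427638 to 2456959, minus strand) was at 323, 340 and 383 CPM in siNT and at 246, 289 and 276 CPM in siLTBP2. All siLTBP2 libraries were below all siNT libraries. The log2 fold change was -0.37 (SE 0.10, 95% interval -0.59 to -0.14, adjusted p = 0.0273), and with the replicate block the adjusted p was 0.000223. The call was lost without siNT 2 (adjusted p = 0.0522), siNT 3 (0.111), siLTBP2 1 (0.115) or siLTBP2 2 (0.0553), while the log2 fold change stayed between -0.42 and -0.29.

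*LMNB1* (chromosome 5, 126776623 to 126837020, plus strand), the gene of the other B-type lamin and not one of the 10 members, went the other way. It was at 62.5, 74.8 and 72.6 CPM in siNT and at 124, 128 and 119 CPM in siLTBP2. The 3 siLTBP2 libraries lay far above the siNT libraries, and the log2 fold change was 0.82 (SE 0.09, adjusted p = 0.000229). Counts per kilobase of *LMNB1* over those of *LMNB2* were 0.311, 0.353 and 0.304 in siNT and 0.807, 0.709 and 0.690 in siLTBP2. The ratio was higher in each siLTBP2 library than in any siNT library. The summed B-type level per kilobase nevertheless overlapped between groups, at 91.3, 99.2 and 107.8 CPM per kilobase in siNT and 95.8, 106.5 and 100.7 CPM per kilobase in siLTBP2. As shares of all lamin counts per kilobase, *LMNA* took 72.5% to 78.2% in siNT and 72.5% to 76.2% in siLTBP2, and *LMNB1* took 5.18% to 7.17% in siNT and 10.6% to 11.2% in siLTBP2.

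**Figure D2:**
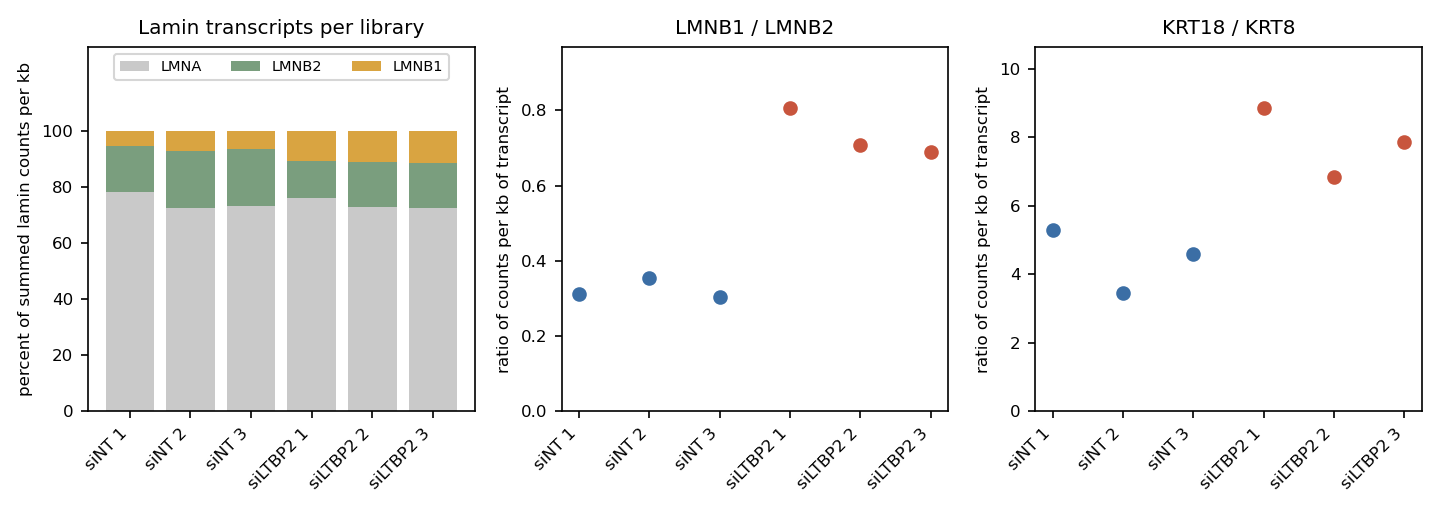
Lamin and keratin transcripts within each library. The stacked bars give *LMNA*, *LMNB2* and *LMNB1* as percent of their summed counts per kilobase of canonical transcript, and the points give *LMNB1* over *LMNB2* and *KRT18* over *KRT8* counts per kilobase (siNT blue, siLTBP2 red). *LMNA* takes 72.5% to 78.2% in every library, and both ratios are higher in all siLTBP2 libraries.

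Among 15 genes for proteins of the lamina and the nuclear envelope, 14 were tested, of which 4 were higher, 1 was lower and 9 did not pass (median log2 fold change 0.12). Of these 14 genes, 35.7% were called, against 19.3% of all genes tested. *LBR*, for the lamin B receptor, was at 111, 128 and 124 CPM in siNT and at 199.8, 216 and 232 CPM in siLTBP2. No library of the groups overlapped, and the log2 fold change was 0.83 (SE 0.09, adjusted p = 0.000235). The SUN proteins span the inner membrane and bind lamins, and both of their genes rose, *SUN1* by a log2 fold change of 0.35 (adjusted p = 0.02) and *SUN2* by 0.35 (adjusted p = 0.0352). *SYNE1*, for a giant nesprin that couples SUN proteins to the cytoskeleton, fell by 0.44 on the log2 scale (adjusted p = 0.0388). The other higher gene, *LEMD2*, rose by a log2 fold change of 0.33 (adjusted p = 0.0475), and its calls under other settings are not given. The call of *LBR* held with any 1 library left out (adjusted p at most 0.0021), whereas those of *SUN1*, *SUN2* and *SYNE1* did not. *SUN2* lost its call without any 1 of 5 libraries, siNT 3 excepted (adjusted p 0.0702 to 0.107). *SUN1* lost it without siNT 1 (0.0806), siNT 2 (0.0548), siLTBP2 2 (0.0566) or siLTBP2 3 (0.0582), and *SYNE1* without siNT 1 (0.123), siNT 2 (0.0823), siLTBP2 2 (0.103) or siLTBP2 3 (0.0906). The replicate block gave 5 higher genes and 1 lower gene in this list, where 6131 of all 16920 genes tested passed. *EMD*, for emerin, was at 69.2 ± 2.10 and 77.7 ± 2.85 CPM, without overlap between the groups, and did not pass (adjusted p = 0.165).

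Of 6 genes for proteins that process or bind the lamin tail, all tested, 1 was higher and 5 did not pass. The share called was 16.7%, against 19.3% of all genes tested. *ICMT*, for the methyltransferase that caps the farnesylated cysteine, rose from 199 ± 6.08 to 243 ± 7.67 CPM (SD, n = 3; log2 fold change 0.28, SE 0.08, adjusted p = 0.0304). It lost its call without any 1 of the 6 libraries (adjusted p 0.0653 to 0.123) and with no low-count filter (0.0703). With the replicate block, 2 of the 6 genes were higher, where 6131 of all 16920 genes tested passed. *ZMPSTE24*, for the protease that cuts prelamin A, was at 120.0 ± 6.28 and 112.3 ± 9.87 CPM (adjusted p = 0.511).

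Among the keratins of simple epithelia, the type I gene *KRT18* (chromosome 12, 52948871 to 52952906, plus strand) was the highest. It was at 38.6, 29.4 and 41.1 CPM in siNT and at 86.7, 72.1 and 83.5 CPM in siLTBP2. The lowest siLTBP2 library was well above the highest siNT library, and replicate 2 was the lowest in both groups. *KRT18* reached 222% of its siNT mean, with a log2 fold change of 1.15 (SE 0.13, 95% interval 0.87 to 1.44, adjusted p = 0.000237). Under 14 other settings the log2 fold change ranged from 1.02 to 1.25, with a call in each.

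Its type II partner *KRT8* (chromosome 12, 52897187 to 52949954, minus strand) was at 9.23, 10.7 and 11.3 CPM in siNT and at 12.3, 13.3 and 13.4 CPM in siLTBP2. The groups did not overlap, but the gap between the highest siNT and the lowest siLTBP2 library was small. The log2 fold change was 0.32 (SE 0.12, 95% interval 0.06 to 0.58), short of the threshold (adjusted p = 0.0855) but past it with the replicate block (adjusted p = 0.0107). Counted reads of *KRT18* per read of *KRT8* were 4.18, 2.74 and 3.65 in siNT and 7.02, 5.43 and 6.24 in siLTBP2. Per kilobase these ratios were 5.28, 3.45 and 4.60 in siNT and 8.87, 6.86 and 7.88 in siLTBP2, and every siLTBP2 library was above every siNT library.

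Counts of both keratins are uncertain. *KRT8* and *KRT18* lie head to head with exons that overlap on opposite strands, so without the strand setting their reads cannot be fully told apart. They also have many near-identical pseudogene copies. Of 51 rows named as *KRT8* pseudogenes, 24 had counts, which summed to 480, 498 and 494 in siNT and 401, 406 and 476 in siLTBP2, or 64.6% to 112% of the counts of *KRT8* itself. Of 67 rows named as *KRT18* pseudogenes, 35 had counts, which summed to 125, 154 and 131 in siNT and 135, 124 and 145 in siLTBP2, or 3.3% to 10.6% of the counts of *KRT18*. The raw sums of the *KRT18* pseudogenes overlapped between the groups, and those of the *KRT8* pseudogenes were lower in every siLTBP2 library. These sums are not scaled to library depth, which differed between libraries, so no difference between the groups is read from them. Raw counts of *KRT8* itself overlapped between the groups, at 427, 530 and 608 in siNT and 538, 628 and 705 in siLTBP2, although its CPM did not. How many of the pseudogene reads came from the parent genes was not tested.

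The remaining simple keratins were scarce. The type II gene *KRT7* (chromosome 12, 52232520 to 52252186, plus strand) was at 3.70, 3.34 and 3.69 CPM in siNT and at 3.17, 3.76 and 3.59 CPM in siLTBP2. The groups overlapped, with a log2 fold change of -0.03 (95% interval -0.37 to 0.31, adjusted p = 0.926) that was 0.04 without siLTBP2 1. The type I gene *KRT19* (chromosome 17, 41523617 to 41528308, minus strand) had 6, 1 and 6 counts in siNT and 9, 9 and 13 counts in siLTBP2. All siLTBP2 counts exceeded all siNT counts, but in a fit without the low-count filter its log2 fold change was 1.27 with SE 0.58 and it did not pass (adjusted p = 0.1755). Beside these keratins, the epithelial genes *EPCAM*, *CDH1*, *CLDN3*, *ESRP1*, *GRHL2* and *OVOL1* had 0 to 2 counts in any library. *CLDN4* was the only one of the 15 that was tested, and it did not pass (2.36 ± 1.48 and 1.76 ± 0.428 CPM, adjusted p = 0.475). Mesothelial cells also make simple keratins, and of 5 mesothelial markers *WT1* had 7, 2 and 4 counts in siNT and 21, 18 and 12 counts in siLTBP2. It passed the low-count filter only through the siLTBP2 libraries, so its call as higher is given no weight here. *MSLN*, *UPK3B* and *LRRN4* had at most 3 counts in any library. *CALB2*, the only other marker of the list tested, had a log2 fold change of -0.84 and did not pass (adjusted p = 0.0855), but was called lower with the replicate block. The summed level of these 5 markers was 1.20 to 2.28 CPM in siNT and 1.21 to 1.61 CPM in siLTBP2, and their part in the keratin counts was not tested.

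Of the 60 other intermediate filament genes, 33 had no count in any library and 8 were tested. Of these 8, 4 were higher, none was lower and the median log2 fold change was 0.55. *KRT15*, a type I keratin of basal epithelial cells, was at 1.58, 1.44 and 1.98 CPM in siNT and at 7.82, 7.27 and 7.69 CPM in siLTBP2, a log2 fold change of 2.18 (SE 0.17, adjusted p = 3.59e-05). The hair keratin gene *KRT34* was at 2.94, 2.78 and 2.28 CPM in siNT and at 6.93, 8.44 and 8.44 CPM in siLTBP2, a log2 fold change of 1.58 (SE 0.16, adjusted p = 0.000155). Both genes were low in siNT and well separated between the groups, and their log2 fold changes stayed within 2.09 to 2.33 and 1.48 to 1.67 under 14 other settings. *BFSP1*, for the lens filament protein filensin, had a log2 fold change of 0.93 (SE 0.22, adjusted p = 0.0159) and lost its call without siNT 2 (adjusted p = 0.0676) or siLTBP2 2 (0.0648). *LMNB1*, described with the lamins, was the other gene called. The type I gene *KRT10*, at 25.7 ± 1.37 and 26.6 ± 0.704 CPM, had a log2 fold change of 0.05 (95% interval -0.15 to 0.25, adjusted p = 0.766), and the type II gene *KRT80* one of 0.28 (adjusted p = 0.274). *KRT17* and *INA* did not pass either (adjusted p = 0.299 and 0.468).

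**Figure D3:**
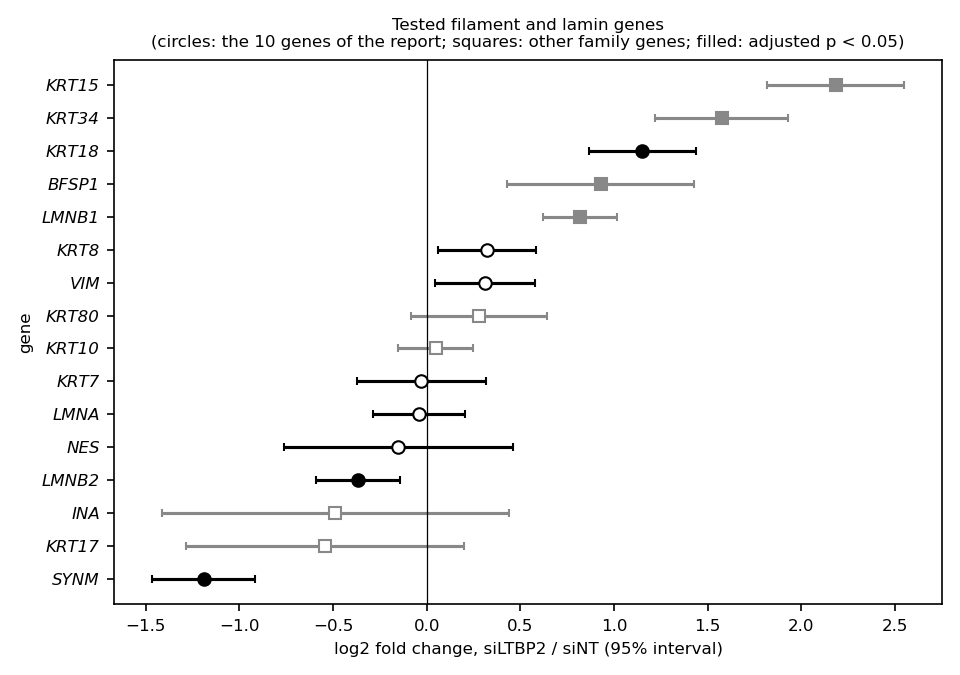
Log2 fold change of siLTBP2 over siNT for the 16 filament and lamin genes tested, with 95% intervals from the edgeR fit. Circles are members and squares are other genes of the family, filled where the adjusted p was below 0.05. *KRT15*, *KRT34*, *KRT18*, *BFSP1* and *LMNB1* are filled on the higher side, and *LMNB2* and *SYNM* on the lower side.

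The transcription factors that mark mesenchymal cells and the usual fibroblast genes were set beside *VIM* and the keratins. Of 7 such factors, 2 were higher, 1 was lower and 4 did not pass (42.9% called, against 19.3% of all genes tested). *PRRX1*, for a homeobox factor of mesenchyme, rose from 45.4 ± 7.88 to 66.2 ± 3.91 CPM (SD, n = 3; log2 fold change 0.54, SE 0.12, adjusted p = 0.0115). *TWIST2* had a log2 fold change of 0.44 (adjusted p = 0.0212) and *ZEB2*, a repressor of epithelial genes, one of -0.37 (adjusted p = 0.0163). *TWIST1* had one of -0.42, with no overlap between the groups, but did not pass (adjusted p = 0.0576). Under the replicate block 2 factors were higher and 2 lower. *TWIST2* lost its call without siNT 1 (adjusted p = 0.0665), siNT 2 (0.0623) or siLTBP2 2 (0.0864), and *ZEB2* without siNT 1 (0.0601), siNT 2 (0.0542) or siLTBP2 1 (0.0615). Of the 8 fibroblast markers, *PDGFRB*, for a platelet-derived growth factor receptor, fell from 167.5 ± 9.69 to 110.2 ± 13.3 CPM (-0.60, SE 0.10, adjusted p = 0.00252), and the other 7 did not pass. With the replicate block, all 8 passed, 2 higher and 6 lower, where 6131 of all 16920 genes tested passed.

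Filaments are joined to each other and to junctions by plakins and other linker proteins. Of 15 linker genes, 10 were tested, with 1 higher, 1 lower, 8 not passed and a median log2 fold change of 0.12. *DST*, for dystonin, rose from 844 ± 83.9 to 1086 ± 101 CPM (SD, n = 3; log2 fold change 0.36, SE 0.11, adjusted p = 0.0448). Its call was lost without siNT 2 (adjusted p = 0.0807), siNT 3 (0.166), siLTBP2 1 (0.156), siLTBP2 2 (0.0743) or siLTBP2 3 (0.058), with upper-quartile factors (0.0574) and with total counts (0.0508). *DTNA*, given beside *SYNM*, was the lower gene. *PLEC*, for plectin, which binds vimentin and keratins alike, was at 1552 ± 249.8 and 1414 ± 190.3 CPM and did not pass (adjusted p = 0.556). The desmosomal genes *DSP*, *PKP1* and *PKP2* had at most 2 counts in siLTBP2 and 0 in siNT over each group. Other desmosomal genes were counted, *JUP* at 60.01 ± 15.1 and 49.9 ± 15.4 CPM (adjusted p = 0.458) and *PKP3* at 3.30 ± 0.323 and 3.92 ± 0.262 CPM without overlap (adjusted p = 0.31), and neither passed. With the replicate block, 2 linker genes were higher and 2 lower, where 6131 of all 16920 genes tested passed.

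Chaperones, among them small heat shock proteins, and ubiquitin ligases keep filaments from aggregating. Of 9 such genes, 8 were tested, with 1 higher and 7 not passed (12.5% called, against 19.3% of all genes tested). Their median log2 fold change was 0.03. *DNAJB6*, for a chaperone that binds keratin 18, was at 94.5, 95.3 and 90.9 CPM in siNT and at 148, 147 and 166 CPM in siLTBP2. The siNT libraries lay close together and below all siLTBP2 libraries, with a log2 fold change of 0.72 (SE 0.08, adjusted p = 0.000294) that stayed between 0.66 and 0.75 under 14 other settings. *HSPB1*, for the small heat shock protein HSP27, did not pass (886 ± 34.6 and 880.5 ± 93.3 CPM, adjusted p = 0.963). With the replicate block, 2 of the 8 genes were higher, where 6131 of all 16920 genes tested passed.

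**Figure D4:**
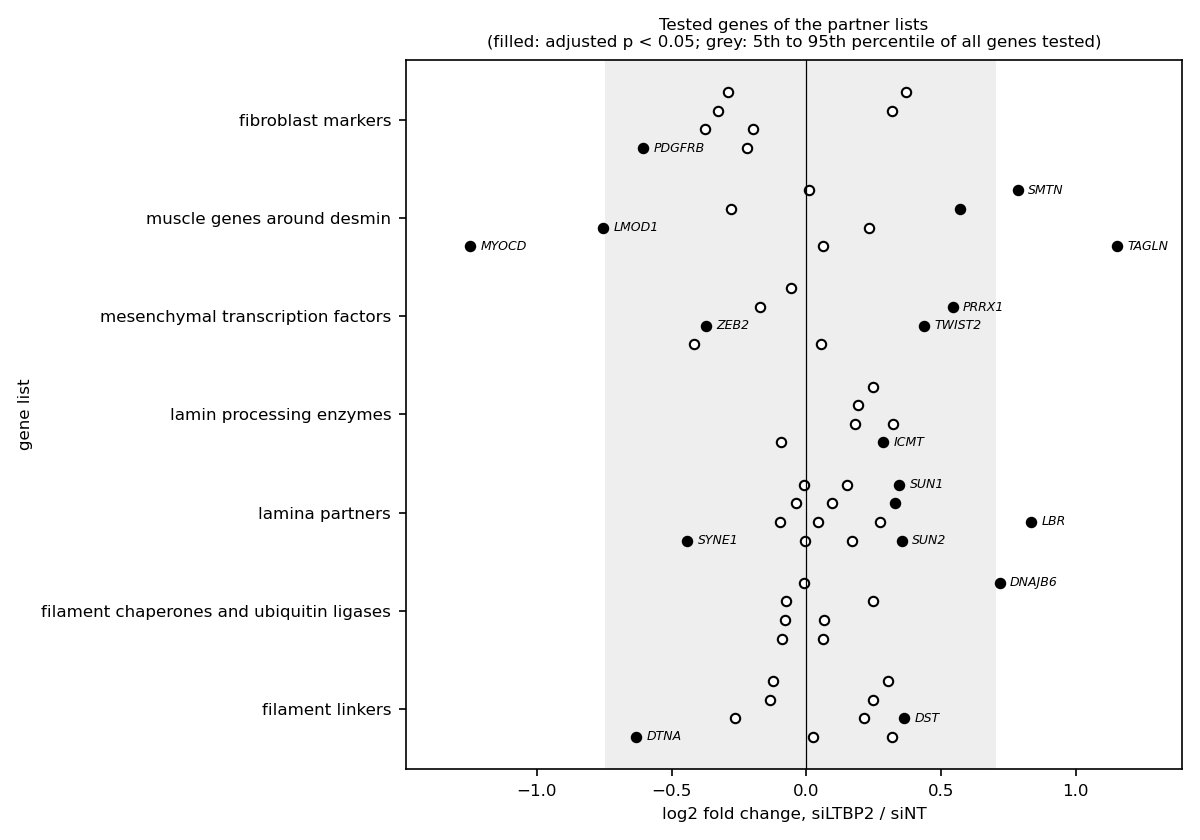
Log2 fold change of siLTBP2 over siNT for each tested gene of 7 lists around the filaments and lamins. Filled points had an adjusted p below 0.05, and the grey band runs from percentile 5 (-0.74) to percentile 95 (0.70) of all genes tested. *LBR*, *DNAJB6*, *TAGLN* and *SMTN* lie above the band and *MYOCD* and *LMOD1* below it.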

How the data were processed

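RNA sequencing of 6 CCD18Co libraries was analysed, 3 siLTBP2 and 3 siNT. The authors aligned the reads to GRCh38 with STAR 2.7.1a and deposited raw read counts per gene from HTSeq 0.11.2. The Ensembl release, like the strand setting, is not given in the sources used. From these counts, edgeR 4.0.16 (R 4.3.3; filterByExpr, TMM, glmQLFit, glmQLFTest, two-sided, no block) was run over 16920 genes with Benjamini-Hochberg adjustment, after a test on simulated data. The study's own fit was edgeR's likelihood ratio test. SEs are the log2 fold change over the square root of the test statistic. Libraries held 44663424 to 53576899 counts, so precision was limited for genes of few reads such as *DES*.

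Members and lists were chosen with earlier results of these data known. Named were all members, *LTBP2*, *LMNB1*, and of each list the called genes with a mean of at least 1 CPM (at most 4, by size of change), besides markers of other cell types. Other genes named, all not passing except *ACTG2* and *LEMD2*, were chosen after their values were seen.

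Positions and lengths came from GENCODE 44 (60462 of 60663 identifiers found, 95.7% with the same start, all members included). No protein sequence was used here.

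Same-numbered libraries deviated together on log2(CPM + 0.5), with correlations of 0.44, 0.19 and 0.57, which pairs the numbers, but on edgeR's log2 CPM with a prior count of 2 the lowest was 0.083. Blocked values, or for a list its blocked counts, are therefore printed where calls change. Within a group, libraries differed beyond sampling noise (chi-square per degree of freedom 27.8 to 55.2). Alternatives were the likelihood ratio test, DESeq2 1.42.0, scaling by total counts, upper quartiles or RLE, 2 other low-count filters, the replicate block, and leaving out each library.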

Additional observations from a re-analysis of the deposited data

How the results depend on the processing

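Over 14 alternatives, *LTBP2*, *SYNM* and *KRT18* kept their direction and their call. The number of genes called was 6131 with the replicate block and 2158 to 2781 with 1 library left out, and at an adjusted p below 0.01 with a fold change above 2 it was 680 with no low-count filter against 434. With the replicate block 5 members passed, of which 3 were higher. The members called higher were 2 under the likelihood ratio test and 2 under DESeq2. The members called lower were 1 to 2 with 1 library left out. With 1 library left out, the log2 fold change ranged from -0.31 to 0.10 for *NES*, from -0.120 to 0.033 for *LMNA* and from -0.086 to 0.040 for *KRT7*, none of which was called. The causes were not tested. Beyond the blocked values printed, the replicate block ended no call among the members and the genes named by size of change. Total-count scaling moved the median of all genes from -0.01 to -0.04, and no member changed its call with scaling. Depth limits *DES* and *KRT19*, which rest on 0 to 13 counts a library.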
